A study of Mus musculus with 9 samples.

Results

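The genes described here are 10 genes grouped as pericyte and vascular smooth muscle genes, Pdgfrb, Rgs5, Kcnj8, Vtn, Notch3, Anpep, Acta2, Tagln, Myh11 and Cspg5, out of 33940 gene symbols to which the measured transcripts could be matched. They were given as a list of names with no threshold on a measured value, although earlier results of these data were known when the list was made, and each gene was read from the transcript with the highest mean count over the 9 samples. RNA was sequenced from piriform cortex, the main cortical target of the olfactory bulb, of wild type C57BL/6 mice that the labels give as 8 weeks old. Laser capture was used to cut 3 layers from frozen sections, labelled A, B and C, with 3 replicates of each, and the labels give all 9 samples the same strain, age, genotype and tissue. No key from these letters to the anatomical layer numbers was found, and nothing ties a sample to an animal, so the p-values given here measure the spread between samples, which may be technical.

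Pericytes and vascular smooth muscle cells are the mural cells that wrap the endothelial tube of blood vessels, smooth muscle around arteries and arterioles and pericytes along capillaries. Endothelial cells recruit them by secreting PDGF-B, which acts on the receptor PDGFRB of the mural cell, and Notch3 signalling keeps arterial smooth muscle differentiated. In the brain, pericytes help to maintain the blood-brain barrier, and contraction of smooth muscle sets local blood flow. Of the 10 genes, Pdgfrb, Rgs5, Kcnj8, Vtn, Notch3 and Anpep are treated here as pericyte genes and Acta2, Tagln and Myh11 as smooth muscle genes. This split is not strict, since Pdgfrb, Rgs5 and Notch3 are expressed by both kinds of mural cell. Cspg5 encodes neuroglycan C, a proteoglycan of neural tissue, and not the pericyte proteoglycan NG2, which is the product of Cspg4. It is therefore reported separately from the other 9, which are called the mural genes. This name is a label for the list, since bulk tissue does not show which cells the counts came from.

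The libraries held between 23104306 and 76471683 counts. Levels are normalised CPM, that is counts scaled to a common library size, where this size was adjusted by the trimmed mean of M values, and differences are log2 fold changes with their standard error (SE) from edgeR's quasi-likelihood test over 56416 transcripts. A transcript passed when its Benjamini-Hochberg adjusted p was below 0.05. A count of 3, taken as the floor of detection, corresponded to between 0.0256 and 0.254 CPM, depending on the library. The share of counts from mitochondrial ribosomal RNA was 55.3% to 70.2% in layer A, 12.8% to 28.1% in B and 20.5% to 57.1% in C. All 9 mural genes passed in the same comparisons when mitochondrial transcripts were left out.

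Acta2 belongs to a family of near-identical actins. Its sequence is shown first because shared stretches limit how far its count can be told from those of its relatives. Only exact matches of 50 bases were searched, so near matches are not counted. Of the 1986 windows of 50 bases in the Acta2 transcript, 7 (0.352%) occur unchanged in other genes, Actg1 and actin pseudogenes among them. These 7 windows form the 56-base stretch below, which is coding sequence in exon 8 of Acta2, on the minus strand at chr19:34243342-34243397 (GENCODE vM21 on GRCm38). It is compared with its best match in cytoplasmic Actg1 (exon 5, chr11:120346662-120346717), smooth muscle Actg2 (exon 8, chr6:83516293-83516348) and cytoplasmic Actb (exon 5, chr5:142904092-142904147), all on the minus strand and coding. Sequences are written 5′ to 3′, and capitals mark bases that differ from Acta2.
Acta2: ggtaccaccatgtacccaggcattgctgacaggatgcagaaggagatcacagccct
Actg1: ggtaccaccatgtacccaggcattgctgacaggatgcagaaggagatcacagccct
Actg2: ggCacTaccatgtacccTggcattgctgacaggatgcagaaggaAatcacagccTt
Actb: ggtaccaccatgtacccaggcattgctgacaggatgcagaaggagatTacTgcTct
Actg1 did not differ from Acta2 in this stretch, Actb differed at 3 bases and Actg2 at 5. Myh11 shared 26 windows (0.4%) with the non-muscle myosins Myh9 and Myh10, and Pdgfrb, Rgs5, Kcnj8, Vtn, Anpep and Cspg5 shared none with another gene. Tagln is less certain, since 877 of its 1595 exon bases (55.0%) are overlapped on the opposite strand by Gm48529 and 6.77% by Pcsk7, and the libraries do not keep the strand. In Notch3, 6.09% of exon bases are overlapped by Gm17276 in the same way.

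The 9 mural genes were all higher in layer A than in layers B and C. In each of them every layer A sample lay above every layer B and every layer C sample, an order that 12.7% of all tested transcripts showed. Against B alone 17.2% and against C alone 17% of transcripts did so. Mean CPM was 6.00-fold (Notch3) to 37.6-fold (Anpep) higher in layer A than in B, and 4.59-fold (Rgs5) to 22.8-fold (Myh11) higher than in C. All 9 passed as higher in layer A against layer B, where 16.5% of tested transcripts passed, 10.7% as higher and 5.83% as lower in A. All 9 passed as higher against layer C too, where 11.3% of transcripts passed, 6.98% as higher and 4.35% as lower in A. The second result depended on replicate 1 of layer C, without which 4 of the 10 genes (Pdgfrb, Anpep, Acta2 and Myh11) and 1369 instead of 6389 transcripts passed. Across any of the 3 layers 9 of the 10 genes passed, beside 14.3% of all transcripts, and the exception was Cspg5. CPM is a share of a library. In bulk tissue, a larger number of mural cells, more RNA per mural cell and less RNA from other cells therefore cannot be told apart.

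**Figure D1:**
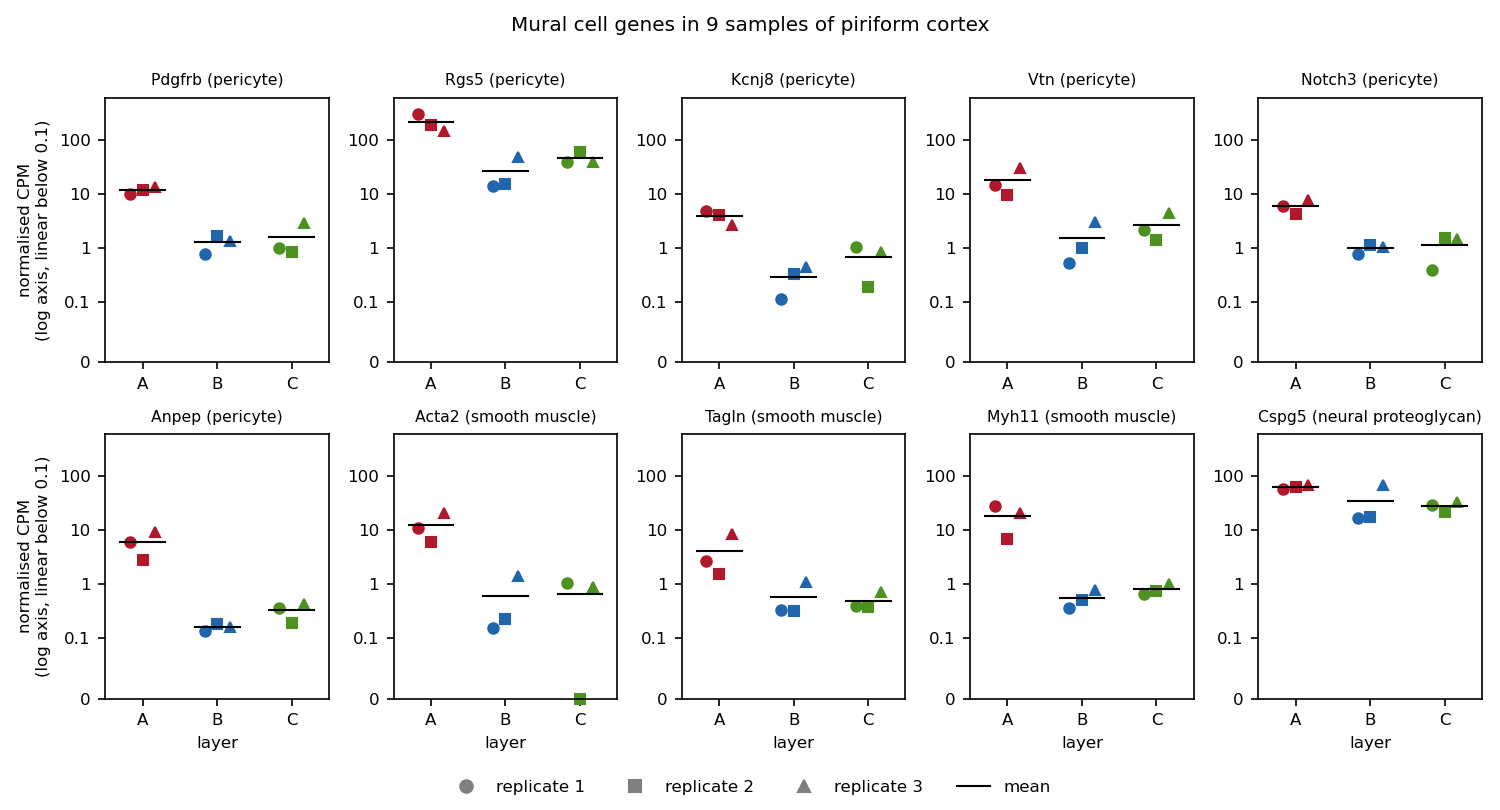
Normalised CPM (log axis, linear below 0.1) of the 10 genes in each of the 9 samples, by layer. Points are samples, shaped by replicate number, and lines are means of 3 samples. In the 9 mural genes the 3 layer A points lie above all others, whereas layer B replicate 3 of Cspg5 (67.9) lies among the layer A points (58.7 to 68.1).

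Pdgfrb, the receptor through which endothelial PDGF-B recruits mural cells, lies on the plus strand of chromosome 18 from 61045200 to 61085056. It measured 9.74, 11.6 and 13.5 CPM in the 3 layer A samples, 0.764, 1.69 and 1.33 in B, and 1.01, 0.829 and 2.87 in C. The layer A samples were the closest to each other of the pericyte genes, with a coefficient of variation of 16.1%, while layers B and C overlapped. The log2 fold change was 3.20 ± 0.502 (SE, adjusted p = 0.000766) against layer B and 2.83 ± 0.493 (adjusted p = 0.00356) against layer C.

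Rgs5, a regulator that shortens G protein signalling in mural cells, is on chromosome 1 (169655501 to 169695813, plus strand). Its levels were 297, 188 and 143 CPM in layer A, 14.02, 15.5 and 48.2 in B, and 38.6, 60.02 and 38.4 in C. Replicate 3 of layer B stood above the other two of its layer and within the range of layer C. Expression was 3.02 ± 0.469 log2 units higher in layer A than in B (adjusted p = 0.00073) and 2.20 ± 0.454 higher than in C (adjusted p = 0.0079). Without replicate 1 of layer C the latter was 2.09 with an adjusted p of 0.0605.

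Kcnj8 encodes the pore subunit Kir6.1 of the ATP-sensitive potassium channel of mural cells and lies on chromosome 6 (142564839 to 142571371, minus strand). In layer A the samples held 4.83, 4.01 and 2.69 CPM, in B 0.112, 0.323 and 0.437, and in C 1.06, 0.191 and 0.826. The lowest layer C value, in replicate 2, rested on 3 counts. Kcnj8 was higher in layer A by 3.70 ± 0.635 against layer B (adjusted p = 0.00131) and by 2.39 ± 0.592 against layer C (adjusted p = 0.0182). The call against layer C was lost when replicate 1 or 2 of layer A or of layer C was left out, with the fold change between 2.02 and 2.75 and adjusted p between 0.0531 and 0.0725.

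Vtn, which encodes the matrix protein vitronectin, is on chromosome 11 (78499120 to 78502324, plus strand). CPM was 14.7, 9.55 and 30.2 in layer A, 0.517, 0.993 and 3.08 in B, and 2.13, 1.40 and 4.45 in C. In every layer replicate 3 was the highest, and the layer A samples spread over a coefficient of variation of 59.2%. Vtn rose by 3.57 ± 0.652 log2 units from layer B to layer A (adjusted p = 0.00193) and by 2.74 ± 0.627 from layer C (adjusted p = 0.0126). Leaving out replicate 3 of layer A, or replicate 1 or 2 of layer C, took the second adjusted p to 0.0562, 0.0801 and 0.0575.

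Notch3, the receptor that arterial smooth muscle needs to mature and that pericytes also express, lies on chromosome 17 (32120820 to 32166852, minus strand). Its values were 5.93, 4.21 and 7.61 CPM in layer A, 0.786, 1.13 and 1.04 in B, and 0.393, 1.53 and 1.44 in C. Layers B and C overlapped, with the lowest of all 9 samples in C. The log2 fold change was 2.59 ± 0.506 against layer B (adjusted p = 0.00302), the smallest of the 9 mural genes, and 2.42 ± 0.507 against layer C (adjusted p = 0.00846). Without replicate 1 of layer C the latter was 1.99 (adjusted p = 0.0503).

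Anpep encodes aminopeptidase N (CD13), a surface peptidase of brain pericytes, on chromosome 7 (79821803 to 79848210, minus strand). Layer A held 6.18, 2.87 and 9.23 CPM, layer B 0.135, 0.185 and 0.167, and layer C 0.368, 0.191 and 0.443. All 3 layer B samples lay below all 3 layer C samples, but the layer B values rest on 6 to 8 counts. Replicate 2 of layer C rests on 3 counts, and how many of all transcripts show this order was not determined. Anpep showed the largest difference of the 10 genes from layer B, 5.22 ± 0.575 log2 units (adjusted p = 0.000164), and 4.09 ± 0.537 against layer C (adjusted p = 0.00146), and passed in both comparisons whichever replicate was left out.

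The smooth muscle genes changed in the same direction. Acta2, smooth muscle alpha-actin and the main actin of the contractile cell, is on chromosome 19 (34241090 to 34255590, minus strand). Its levels were 10.8, 6.21 and 21.0 CPM in layer A, 0.157, 0.231 and 1.44 in B, and 1.08, 0.00 and 0.877 in C. No Acta2 count was found in replicate 2 of layer C, which allows up to 3 counts or 0.191 CPM in that library. The log2 fold change was 4.37 ± 0.886 against layer B (adjusted p = 0.00373) and 4.15 ± 0.876 against layer C (adjusted p = 0.00873), and its SE was the largest among the 10 genes in both comparisons.

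Myh11 encodes smooth muscle myosin heavy chain and lies on chromosome 16 (14194535 to 14291372, minus strand). In the 3 layer A samples it measured 28.1, 6.88 and 20.6 CPM, in B 0.359, 0.508 and 0.791, and in C 0.663, 0.765 and 1.01. The lowest layer A sample, replicate 2, was still above every sample of the other layers. Myh11 was 5.06 ± 0.548 log2 units higher than in B (adjusted p = 0.000162) and 4.48 ± 0.533 higher than in C (adjusted p = 0.000982), and it kept both calls without any single replicate.

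Tagln encodes transgelin (SM22), an actin-binding protein of smooth muscle, on chromosome 9 (45929619 to 45936058, minus strand). CPM was 2.71, 1.54 and 8.38 in layer A, 0.337, 0.323 and 1.10 in B, and 0.393, 0.383 and 0.724 in C. Replicate 3 of layer A stood far above the other two, and the coefficient of variation of layer A was 87.0%, the widest of the 10 genes in this layer. The log2 fold change was 2.85 ± 0.671 against layer B (adjusted p = 0.00894) and 3.03 ± 0.682 against layer C (adjusted p = 0.0116). Without replicate 3 of layer A these were 1.86 (adjusted p = 0.0843) and 2.04 (adjusted p = 0.0794), and without replicate 1 of layer C the latter was 2.86 (adjusted p = 0.0763).

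Cspg5 was also highest on average in layer A but passed in no comparison. The gene lies on chromosome 9 (110243783 to 110262575, plus strand) and measured 58.7, 63.5 and 68.1 CPM in layer A, 17.1, 18.0 and 67.9 in B, and 30.03, 22.0 and 34.0 in C. Replicate 3 of layer B lay within the range of layer A, whereas all layer C samples lay below it. Its log2 fold change was 0.89 ± 0.441 against layer B (adjusted p = 0.201) and 1.14 ± 0.444 against layer C (adjusted p = 0.117). These results depended on 1 library, since without replicate 3 of layer B the fold changes were 1.91 (adjusted p = 0.00046) and 1.15 (adjusted p = 0.0057).

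**Figure D2:**
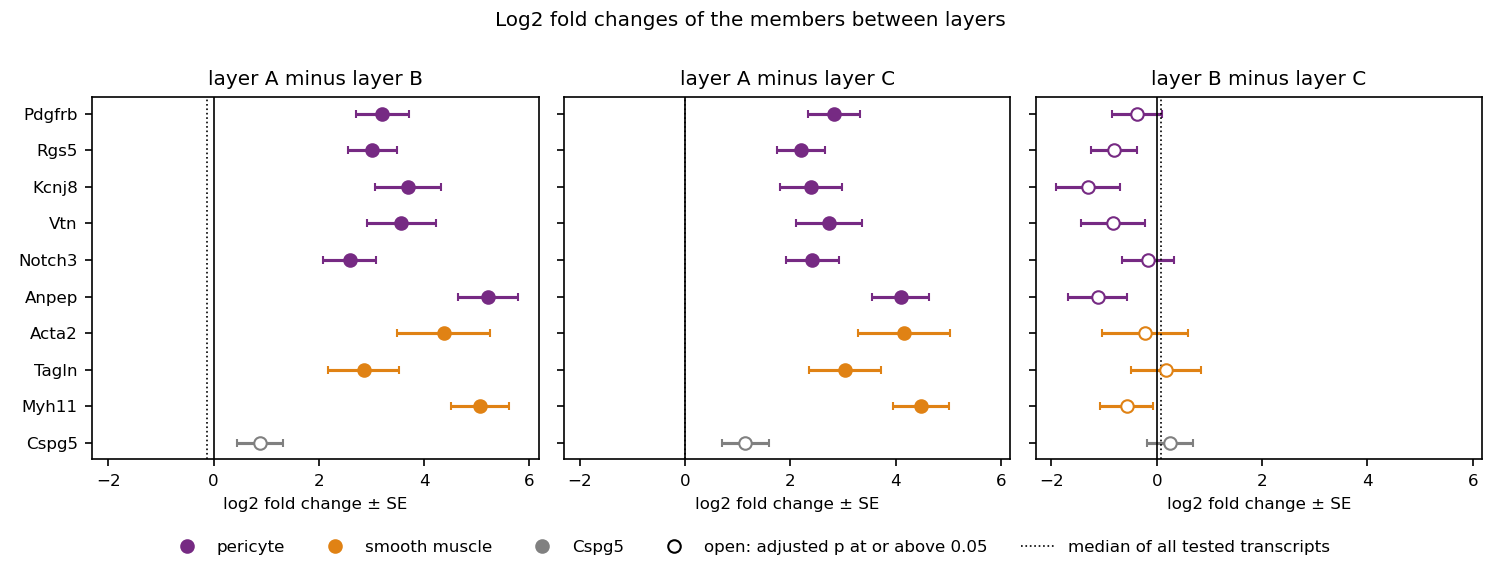
Log2 fold change ± SE of the 10 genes between layers, from edgeR's quasi-likelihood test on 9 samples. Filled points have an adjusted p under 0.05, open points do not, and the dotted line is the median of all 56416 tested transcripts (−0.12, −0.01 and 0.07 from left to right). The 9 mural genes lie between 2.20 and 5.22 in the first 2 panels, and all 10 points are open in the third.

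None of the 10 genes passed between layers B and C. The samples of these layers overlapped in all of the 10 but Anpep, and the share of all transcripts without overlap was not determined. The log2 fold change of layer B minus layer C ran from −1.31 ± 0.606 (Kcnj8, unadjusted p = 0.047) to 0.26 ± 0.438 (Cspg5), and all adjusted p-values were 1.00. No transcript passed in this comparison (0% of 56416) by edgeR, with 2316 (4.11%) at an unadjusted p under 0.05, while DESeq2 called 130, none of them among the 10 genes. The layer B mean was the lower one in 8 of the 9 mural genes, and the share of all transcripts in this order was not determined. The exception was Tagln (0.588 ± 0.446 CPM in B and 0.4998 ± 0.194 in C, SD, n = 3). The differences of Pdgfrb, Notch3, Acta2 and Tagln changed sign in fits that left out 1 sample. Pericyte genes had a median of −0.82 and smooth muscle genes of −0.22, beside 0.07 for all transcripts.

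The contrast of smooth muscle with pericyte genes showed a larger median difference for the former, with overlapping ranges. Against layer B, the 6 pericyte genes had log2 fold changes of 2.59 to 5.22 with a median of 3.39, and the 3 smooth muscle genes 2.85 to 5.06 with a median of 4.37, where the median of all tested transcripts was −0.12. Against layer C, the medians were 2.58 and 4.15, beside −0.01 for all. Among pericyte genes Anpep exceeded all others in both comparisons, and among smooth muscle genes Tagln was the lowest in both.

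Acta2 and Pdgfrb, the first genes of the 2 lists, were then compared within each library, which needs no scaling factor between libraries. The log2 ratio of Acta2 to Pdgfrb counts (0.5 added to each) was 0.15, −0.90 and 0.64 in layer A, −2.20, −2.81 and 0.11 in B, and 0.10, −4.75 and −1.71 in C. Layer A overlapped both other layers, since replicate 3 of layer B and replicate 1 of layer C lay above its replicate 2 and close to its replicate 1. The means were −0.04 ± 0.787, −1.63 ± 1.54 and −2.12 ± 2.45 (SD, n = 3). They did not differ beyond the spread between samples (two-sided exact permutation test, p = 0.339, where the smallest p that the 1680 arrangements allow is 0.00357). The value of −4.75 came from a library with no Acta2 count and 13 Pdgfrb counts, so its size depends on the 0.5 added and on depth.

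Summed over their members, the smooth muscle genes amounted to 12.3%, 6.63% and 24.2% of the CPM of the pericyte genes in layer A, 5.23%, 5.36% and 6.14% in B, and 4.90%, 1.79% and 5.401% in C. Every layer A sample was above all others in this share, with replicate 2 of layer A and replicate 3 of layer B the closest to each other, which is given as a description without a test. The pericyte sum was dominated by Rgs5, which made up 69.4% to 93.5% of it. With Rgs5 left out, the ratio of the sums was 1.01, 0.453 and 0.790 in layer A, 0.369, 0.246 and 0.550 in B, and 0.431, 0.277 and 0.261 in C. Without Rgs5, replicate 3 of layer B thus lay above replicate 2 of layer A.

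**Figure D3:**
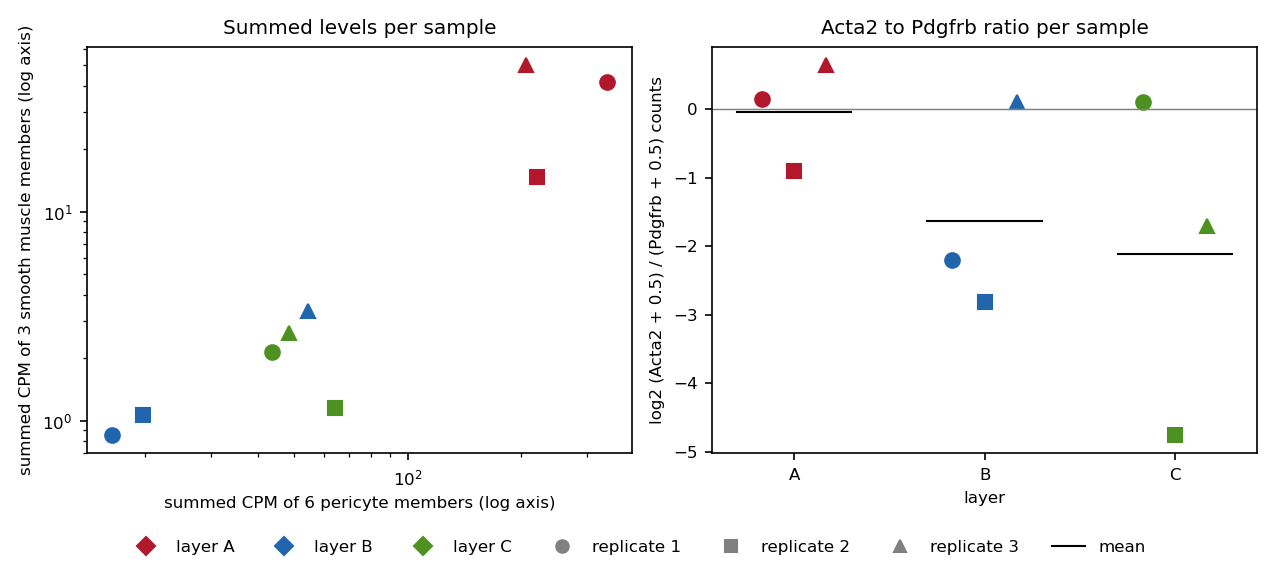
Left, summed CPM of the 3 smooth muscle genes against that of the 6 pericyte genes in each sample (both log axes). Right, log2 ratio of Acta2 to Pdgfrb counts in each sample with layer means, where layer A (−0.90 to 0.64) overlaps layer B (−2.81 to 0.11) and layer C (−4.75 to 0.10).

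Per kilobase of transcript, which allows levels to be compared between genes, Rgs5 was the most abundant mural gene in every layer, with 51.2 ± 19.3 normalised CPM per kilobase in layer A, 6.33 ± 4.72 in B and 11.1 ± 3.04 in C (SD, n = 3). In layer A it was followed by Cspg5 (16.4 ± 1.22), Vtn (10.4 ± 6.17), Acta2 (6.23 ± 3.71), Myh11 (2.83 ± 1.64), Tagln (2.64 ± 2.29) and Pdgfrb (2.14 ± 0.344). Kcnj8 (1.69 ± 0.474), Anpep (1.60 ± 0.837) and Notch3 (0.738 ± 0.212) were the least abundant. Only the step from Rgs5 to Cspg5 exceeded the sum of the neighbouring SDs in the upper part of this order, and the levels from Vtn down to Anpep ran into each other within their spread.

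In layer B, Cspg5 (8.87 ± 7.51 normalised CPM per kilobase) and Rgs5 changed places within their spread. In layers B and C, Vtn again followed them, at 0.877 ± 0.782 and 1.53 ± 0.914. The remaining 7 genes were at 0.369 or less in both layers, and Anpep was the last in both. Myh11 moved from the fifth place in layer A to the ninth in layers B and C.

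Replicates of a layer did not share a single rank among the mural genes. In layer A, replicate 3 was the highest for Pdgfrb, Vtn, Notch3, Anpep, Acta2 and Tagln, and replicate 1 for Rgs5, Kcnj8 and Myh11. In layer B, replicate 3 was the highest for 6 of the 9 genes and replicate 1 for none. In layer C, replicate 3 was the highest for 5 of the 9, so it led most often in every layer. Over the 9 samples, the Pearson r of log2 CPM between 2 mural genes ran from 0.70 to 0.98 (36 pairs), and that of Cspg5 with a mural gene from 0.65 to 0.87, values that the common difference between layers and the shared libraries enter.

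PDGF pathway genes other than Pdgfrb were uneven. Of 5 other genes of the pathway, Pdgfra and, named after its values were seen, Pdgfd passed as higher in layer A against both layers and 3 did not pass. Pdgfb, the ligand of PDGFRB, was at 2.99 ± 2.11 CPM in layer A, 4.79 ± 1.12 in B and 4.39 ± 0.351 in C (SD, n = 3). Its log2 fold change was −0.64 ± 0.45 against layer B (adjusted p = 0.383), and the cells that gave its counts are not known. Pdgfa, the ligand of PDGFRA, had −0.46 ± 0.495 (adjusted p = 0.591). Pdgfra, the receptor carried by oligodendrocyte precursors and fibroblasts, was 2.75 ± 0.362 higher (adjusted p = 0.000273). The median of the 5 was 0.08 against layer B and −0.19 against layer C.

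Around Notch3, 6 of 12 genes of the Notch pathway passed as higher in layer A than in B and 5 than in C, with none lower and medians of 1.83 and 1.60. The ligand Jag1, which vascular cells present to Notch3, rose from 0.629 ± 0.565 CPM in B to 3.60 ± 0.821 in layer A (log2 fold change 2.505 ± 0.64, adjusted p = 0.014). Heyl, a transcriptional target of Notch3 in mural cells, rose from 0.668 ± 0.249 to 6.05 ± 4.05 CPM (3.17 ± 0.57, adjusted p = 0.00176), but did not pass against layer C (1.59 ± 0.536, adjusted p = 0.0702), where the samples overlapped. Hes1, a target of Notch receptors in many cell types, had 1.74 ± 0.732 (adjusted p = 0.124).

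The partner of the Kcnj8 channel subunit changed with it. Abcc9, which encodes the regulatory subunit SUR2, measured 13.4 ± 6.62 CPM in layer A, 1.69 ± 1.504 in B and 2.95 ± 0.743 in C, a log2 fold change of 2.97 ± 0.568 against layer B (adjusted p = 0.00261) and 2.18 ± 0.552 against layer C (adjusted p = 0.0199). Abcc8, which encodes SUR1, the regulatory subunit of neurons and endocrine cells, fell by 1.75 log2 units from layer B to layer A (SE 0.462, adjusted p = 0.0167), and against layer C it did not pass (−0.99 ± 0.459, adjusted p = 0.198). Kcnj11 was not analysed here.

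Of 10 genes of signalling between endothelium and mural cells, 8 passed as higher in layer A than in B and 5 than in C, with medians of 2.82 and 1.81. Tek, the endothelial receptor of angiopoietins, rose by 2.70 ± 0.434 against layer B (adjusted p = 0.000903). Ednra, the endothelin receptor of smooth muscle, rose by 3.32 ± 0.632 (adjusted p = 0.00256), and its difference from layer C was 1.89 ± 0.597 (adjusted p = 0.0538), which did not pass. Angpt1, the angiopoietin that mural cells secrete, had 0.55 ± 0.442 (adjusted p = 0.449) and was at 3.98 ± 1.78 CPM in layer A and 2.71 ± 0.884 in B.

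Of 13 other pericyte genes, 11 had enough counts to be tested, 7 passed as higher in layer A than in B and 4 than in C, none as lower, and the medians were 2.57 and 2.01. Cspg4, which encodes NG2 on pericytes and oligodendrocyte precursors, measured 10.6 ± 0.202 CPM in layer A, 1.78 ± 0.516 in B and 4.88 ± 1.09 in C. Its log2 fold change was 2.57 ± 0.37 against layer B (adjusted p = 0.000424) and 1.12 ± 0.353 against layer C (adjusted p = 0.0536). Higd1b had 2.47 ± 0.994 (adjusted p = 0.108) at 0.854 ± 0.511 CPM in layer A.

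Of 15 other smooth muscle genes 12 were tested, of which 9 passed as higher and 1 as lower in layer A than in B, and 7 and 1 against layer C, with medians of 3.03 and 2.55. Myocd, the transcriptional coactivator of smooth muscle genes, was at 1.03 ± 0.159 CPM in layer A and 0.0600 ± 0.0354 in B, where the 3 samples held 1 to 4 counts each (log2 fold change 4.05 ± 1.04, adjusted p = 0.0143). Mylk, the kinase that starts smooth muscle contraction and is found in many other cells, had 1.29 ± 0.481 (adjusted p = 0.0829). Cnn1 (calponin) was too low to be tested, with 4 to 23 counts in layer A and at most 8 in any other sample. The gene that fell was Tpm1, named after its values were seen, a tropomyosin with muscle and non-muscle forms, by 1.43 log2 units against layer B (SE 0.294, adjusted p = 0.00398).

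**Figure D4:**
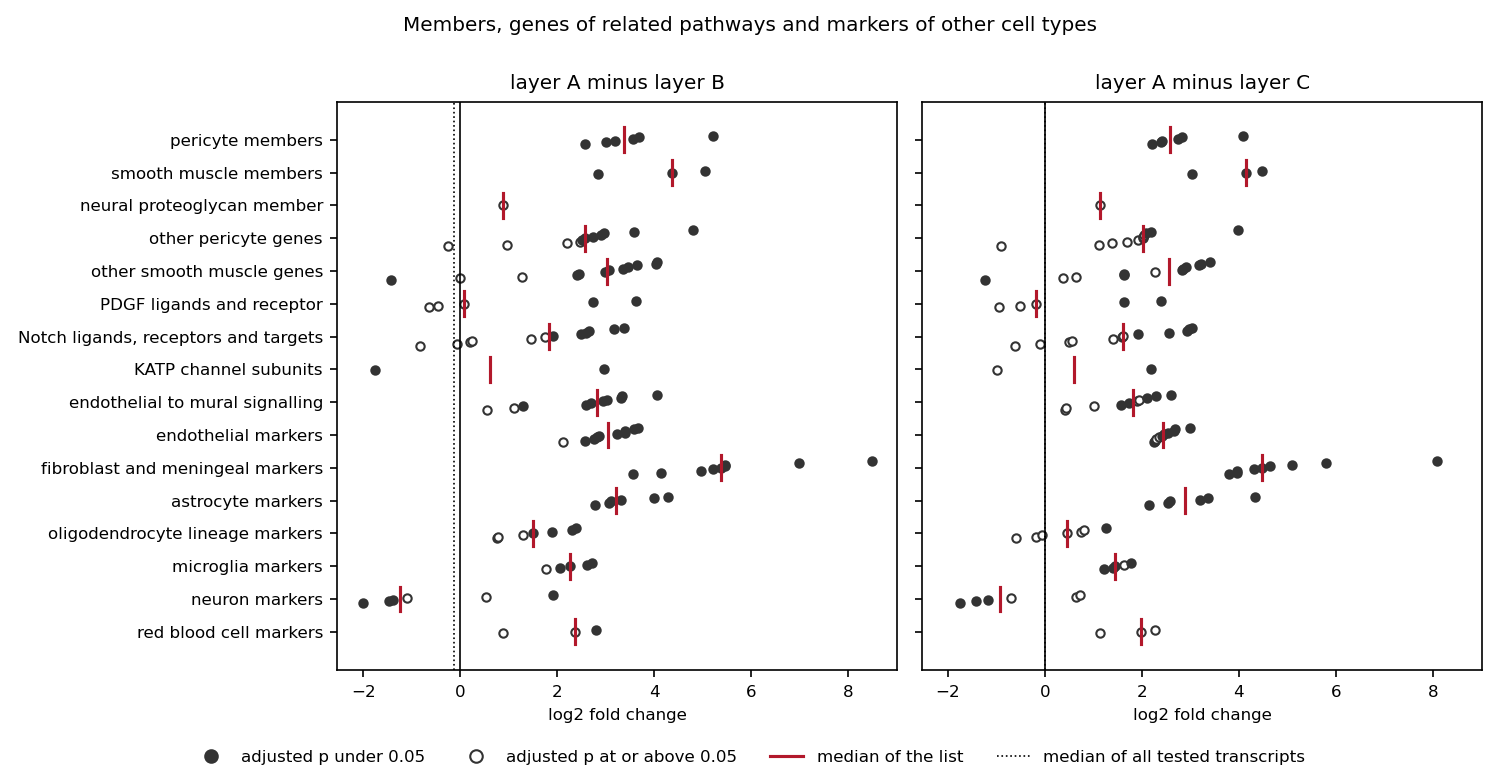
Log2 fold changes of layer A minus layer B (left) and layer A minus layer C (right) for each tested gene of the lists, filled where the adjusted p was under 0.05. Red bars are list medians and the dotted line is the median of all tested transcripts. The medians of the mural genes (3.39 and 4.37, left) lie beside those of endothelial (3.06) and astrocyte markers (3.21) and below that of fibroblast and meningeal markers (5.38), with neuron markers at −1.24.

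Markers of several other cell types moved together with the mural genes, and their part in the results was not tested. All 9 fibroblast and meningeal markers passed as higher in layer A in both comparisons, with medians of 5.38 and 4.47. Their summed level was 68.7 to 162 CPM in layer A, 1.32 to 7.51 in B and 4.17 to 5.85 in C. Col1a1, the first gene of this list as written, is a collagen of the meninges and of perivascular fibroblasts. It was at 5.80 ± 3.95 CPM in layer A and 0.129 ± 0.105 in B (log2 fold change 5.46 ± 0.688, adjusted p = 0.000239).

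Of 10 endothelial markers, 9 passed as higher in layer A than in B and 8 than in C (medians 3.06 and 2.44), and their sum ran from 116 to 138 CPM in layer A, 8.02 to 21.8 in B and 16.1 to 27.1 in C. Pecam1, the adhesion molecule CD31 of all endothelium, rose by 3.23 ± 0.524 against layer B (adjusted p = 0.000927). The 6 astrocyte markers all passed in both comparisons (medians 3.21 and 2.89), with Gfap, the astrocyte intermediate filament, at 53.7 ± 12.1 CPM in layer A, 2.73 ± 0.375 in B and 2.62 ± 0.517 in C. The astrocyte sum was 816 to 1366 CPM in layer A and 65.9 to 173 in the other layers. Gene lists of the vessel wall were therefore not alone in being higher in layer A.

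Of 5 microglia markers, 4 passed as higher in layer A in each comparison (medians 2.27 and 1.45), Cx3cr1 among them. The 5 summed to 78.1 to 96.7 CPM in layer A, 12.02 to 27.3 in B and 30.5 to 37.8 in C. Of 7 markers of the oligodendrocyte lineage, 4 passed against layer B, Olig2 among them, and 1 against layer C (medians 1.51 and 0.46). The sums of the 7 overlapped between layers, at 165 to 246, 41.9 to 191 and 118 to 380 CPM. Of 6 neuron markers, 3 passed as lower in layer A in each comparison and 1, the GABA-synthesising enzyme Gad2, named after its values were seen, as higher against layer B (medians −1.24 and −0.93). Rbfox3, the neuronal nuclear protein NeuN, was at 22.0 ± 5.69 CPM in layer A and 57.5 ± 7.38 in B and fell by 1.39 log2 units (SE 0.306, adjusted p = 0.00612). Of 4 red blood cell markers 3 were tested and 1 passed against layer B (median 2.37), with Hba-a1 at 0 counts in all samples and sums of 5.16 to 12.7, 1.28 to 2.77 and 0.957 to 3.59 CPM in layers A, B and C.

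Among 11152 genes with a mean of at least 50 counts, the 5 whose log2 CPM followed Pdgfrb most closely over the 9 samples were Fam20a (Pearson r = 0.992), Slc38a3 (0.982), Spry1 (0.981), Slc13a4 (0.981) and Lama4 (0.979). For Acta2 the closest 4 were Dctd (0.988), Serpinh1 (0.986), Tgm2 (0.984) and Grn (0.978). All 9 were higher in layer A on average, from Slc13a4, at 15.8 CPM in layer A, 0.101 in B and 0.222 in C, to Grn, at 14.9, 8.94 and 9.24 CPM. The coefficients describe these 9 libraries, and the difference between layer A and the other layers enters each of them.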

How the data were processed

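Piriform cortex was sampled by laser capture as 3 layers with 3 replicates each. The authors amplified the RNA, prepared libraries that do not keep the strand, and deposited a count for each Ensembl transcript identifier, which had not been normalised. The submitters' processing notes name bcl2fastq 1.8.4, Bowtie, HTSeq 0.5.3 and the build mm10, and the Ensembl release is not given in the sources used here. Transcripts of a gene with nearly the same exons carried nearly the same count, so sums over a gene can hold a read more than once. Without molecular identifiers, floors cover counting error only. Of 95533 identifiers, 86.6% matched GENCODE vM21 (GRCm38), which gave symbols and coordinates.

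A minimum of 10 counts in 3 or more samples was set, and the transcripts that met it were tested with edgeR 4.0.16 (R 4.3.3, limma 3.58.1), TMM scaling and the quasi-likelihood F-test with layer as the factor, over all 9 samples, with Benjamini-Hochberg adjustment over all tested transcripts. The code was tested on simulated data. DESeq2 1.42.0, other filters and scalings, gene sums, a replicate block and leaving out each sample were alternatives. Named genes were the 10 members, the first 3 genes of each related list, the first of each marker list and the 5 genes most like Pdgfrb and Acta2, 1 of which is not reported here. Members and lists were chosen with earlier results of these data known. Pdgfd, Gad2 and Tpm1 were named after their values were seen. Replicates of a layer differed by more than counting noise (chi-square per degree of freedom 16.2 to 248), so each was counted as a sample, which does not show that they came from separate animals or captures.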

Additional observations from a re-analysis of the deposited data

How the results depend on the processing

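In alternatives other than leaving out 1 sample, all 77 values of the 9 mural genes against layer B and all 77 against layer C stayed on their side of the threshold. These alternatives include a fit of only the samples of the compared layers. Leaving out each sample in turn gave 8 to 10 of the 10 genes passing against layer B, 4 to 10 against layer C and 8 to 10 for any difference, and the low count of 4 came without replicate 1 of layer C. With at least 10 counts required in all 9 samples only 6 of the 10 genes were tested, and 5 passed in each of these comparisons. The number of transcripts passing was 5570 to 11337 against layer B, 1369 to 9740 between layers A and C, 0 to 17 between layers B and C, and 4070 to 11312 for any difference when samples were left out. The libraries whose removal moved these numbers by over 1.5 times were replicate 1 of layers A (5570) and B (5759) for layer A minus B, replicates 1 and 2 of layer A (2727 and 3238), 3 of layer B (9740) and 1 and 2 of layer C (1369 and 3785) for layer A minus C, 3 of layer B (17) for layer B minus C, and 1 and 2 of layer A (4070 and 4707) for any difference. Summing counts by gene gave 4914, 3637 and 4383, and 1 transcript per gene gave 5006, 3749 and 4501, for layer A minus B, layer A minus C and any difference, where fewer features were tested than 56416. Between layers B and C, DESeq2 called 130, no filter on low counts 10 and 1 transcript per gene 5. Differences between layers B and C that changed sign, none of them passing, were Acta2 (−0.22, from −1.95 to 0.21 with 1 sample left out, including 0.14 and 0.16), Tagln (0.18, from −0.72 to 0.57, including −0.016), Notch3 (−0.17, from −0.63 to 0.081, including 0.07), Pdgfrb (−0.37, from −0.66 to 0.41) and Cspg5 (0.26, from −0.76 to 0.56), and the cause was not tested. The Acta2 to Pdgfrb ratio, as layer A minus the mean of the other layers, was 1.84 log2 units, 1.82 with sums by gene and 1.27 to 2.27 with 1 sample left out. The exact permutation test, which is of any difference among the layers and not of this value, gave p from 0.157 to 0.604 in these alternatives. Cspg5 passed against layer C when only the samples of layers A and C were fitted (1.15, adjusted p = 0.0133). The correlation of deviations from the layer mean ran from −0.186 to 0.243 over 9 same-numbered pairs, with 4 above 0.1. Pairs of unlike number ran more widely, from −0.369 (replicate 2 of layer A with 3 of layer B) to 0.394 (replicate 2 of layer A with 1 of layer B). With 3 samples per layer, this cannot decide whether replicate numbers pair the samples. With the replicate number as a block, 9184 transcripts passed for layer A minus B and 6384 for layer A minus C, and no call of the 10 genes changed. Depth limits the low values of layers B and C, where Anpep, Kcnj8 and Acta2 rested on fewer than 10 counts in several libraries.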
